A study of Mus musculus with 32 samples.

Results

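Gdf15, Ccn1, F3, Plaur and Plau are 5 genes for signalling and proteolytic proteins that act outside the cell or at its surface, measured here in mouse thymocytes before and after ionising radiation. They were chosen by name, with earlier results of these arrays known, as 5 of the 28786 gene names on the array. Gdf15, Ccn1 and Plau encode secreted proteins, whereas the products of F3 and Plaur are bound to the cell membrane. Because the genes were selected on their response in the same arrays, their levels and differences are given below as a description and carry no test. RNA came from thymocytes of 6-week-old C57Bl/6 mice that were untreated (0 h) or had received 5 Gy of gamma radiation 2 h or 4 h before, and each sample was read on 1 of 32 single-colour Agilent arrays. Mice of the lines labelled P72 and R72, which differ in the p53 codon that names them (proline or arginine), were measured on 4 arrays at each time, from independent experiments per the labels. Mice labelled p53+/+ and p53-/-, with and without the p53 gene, had 2 untreated arrays each, and a single array for each later time. All samples pooled 2 mice, labelled as 1 male and 1 female. How the P72, R72 and p53-/- alleles were made is not given in the sources used here. Nor do the sources say whether the 2 untreated arrays of p53+/+ or of p53-/- came from different pools.

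GDF15 is a stress-induced cytokine of the TGF-beta superfamily whose gene is a known p53 target, and it signals through the receptor GFRAL in the brainstem. CCN1, named Cyr61 on the array, is a matrix-associated protein that binds integrins and is a classic immediate early gene. F3 encodes tissue factor, the membrane receptor of coagulation factor VII that starts the extrinsic clotting cascade. Plau encodes urokinase, a protease that converts plasminogen to plasmin, and Plaur encodes its cell-surface receptor, which focuses that activity at the membrane and also binds vitronectin. Most thymocytes are CD4 CD8 double positive cells that die by p53-dependent apoptosis after irradiation.

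The 75th percentile of the processed signal, to which every level below is set, ranged from 260.4 to 1017 fluorescence units between arrays. Between 52.2% and 71.2% of probes on an array were well above background, the scanner software's call that a spot exceeds its surroundings, and no spot was saturated. A level is the log2 signal minus that percentile, and a difference is between group means, followed after ± by its standard error in limma, fitted over all genes. The labels did not match the sex-linked transcripts: in P72 and R72, Xist lay between -7.91 and -3.70 in replicates 1 and 3 and between 5.12 and 5.87 in replicates 2 and 4, at every time. Both untreated p53+/+ arrays carried Y-linked Ddx3y (2.05 and 2.08) and both irradiated ones did not (-7.67 and -6.81), so sex-linked signal and irradiation cannot be told apart in p53+/+. All 4 p53-/- arrays carried Ddx3y (1.14 to 2.01). The Trp53 probe read -0.48 to -0.087 on the p53-/- arrays against -0.11 to 0.26 on the p53+/+ arrays, and since the deleted part of the gene is not given, it checks nothing. Cdkn1a, the p53 target p21, lay at -2.55 and -2.15 on the irradiated p53-/- arrays and at 1.29 and 1.63 on the irradiated p53+/+ arrays. All 16 thymocyte markers examined, among them Cd3e, Cd4, Cd8a and Rag1, were well above background on at least 1 array of every group.

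To show the sequence next to which these genes are transcribed, the 250 bases before each annotated start are printed for the 4 genes found in the RefSeq promoter table (GRCm38.p6), 5′ to 3′ on the gene's strand. Gdf15 has 2 annotated starts there, and Plau is named only. Capitals mark matches, on either strand, to the motifs of AP-1 (TGANTCA), SP1 (GGGCGG), TEAD (GGAATG) and the TATA box (TATAAA).

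Gdf15, window 1 (chr8:70632457-70632706, minus strand): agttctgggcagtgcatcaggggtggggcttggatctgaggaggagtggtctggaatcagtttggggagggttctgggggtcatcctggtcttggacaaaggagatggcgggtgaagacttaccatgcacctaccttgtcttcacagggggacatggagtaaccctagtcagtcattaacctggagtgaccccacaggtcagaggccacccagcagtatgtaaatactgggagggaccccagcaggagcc
Gdf15, window 2 (chr8:70632096-70632345, minus strand): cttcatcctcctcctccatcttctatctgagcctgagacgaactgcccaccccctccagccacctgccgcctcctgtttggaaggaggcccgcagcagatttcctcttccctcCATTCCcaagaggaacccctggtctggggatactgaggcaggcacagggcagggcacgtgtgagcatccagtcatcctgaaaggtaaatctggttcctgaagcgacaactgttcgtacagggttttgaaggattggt
Ccn1 (chr3:145649986-145650235, minus strand): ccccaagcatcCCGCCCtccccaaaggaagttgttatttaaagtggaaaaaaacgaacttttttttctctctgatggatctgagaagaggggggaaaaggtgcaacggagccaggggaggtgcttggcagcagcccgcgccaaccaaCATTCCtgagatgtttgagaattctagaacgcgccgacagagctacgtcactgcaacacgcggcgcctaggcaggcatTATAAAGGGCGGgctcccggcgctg
F3 (chr3:121723287-121723536, plus strand): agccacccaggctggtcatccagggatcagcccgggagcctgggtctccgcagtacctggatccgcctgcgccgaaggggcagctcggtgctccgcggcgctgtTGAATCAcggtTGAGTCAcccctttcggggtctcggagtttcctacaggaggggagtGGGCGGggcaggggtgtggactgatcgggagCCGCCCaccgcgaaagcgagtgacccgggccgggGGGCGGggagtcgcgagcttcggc
Plaur (chr7:24462233-24462482, plus strand): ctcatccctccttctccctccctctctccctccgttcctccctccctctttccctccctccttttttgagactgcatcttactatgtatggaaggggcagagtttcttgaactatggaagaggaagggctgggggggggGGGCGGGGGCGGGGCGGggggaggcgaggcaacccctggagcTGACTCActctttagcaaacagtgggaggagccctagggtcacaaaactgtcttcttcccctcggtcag

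AP-1 is the factor family of Jun, Fos and Atf3, and its motif is held by 6.75% of all 32851 promoter windows of this length. The F3 window held 2 AP-1 matches, TGAATCA from -146 to -140 and TGAGTCA from -135 to -129 relative to the start, and the Plaur window held 1, TGACTCA from -69 to -63. TEAD, the DNA-binding partner of YAP, had 1 match in the Ccn1 window and 1 in the second Gdf15 window, against 12.6% of all windows. The SP1 motif was found 3 times each in F3 and Plaur and 2 times in Ccn1, against 32.7% of all windows, and its last Ccn1 match adjoins a TATA box (12.4% of windows). The first Gdf15 window held none of these 4 motifs. A search for the CRE motif (TGACGTCA, 1.55% of windows) and for the consensus sequences of a p53 half-site (7.13%), of NF-kB (3.9%) and of the CArG box (1.47%) gave no match in any of the 5 windows. These are matches of letters in a short stretch, not evidence of binding.

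**Figure D1:**
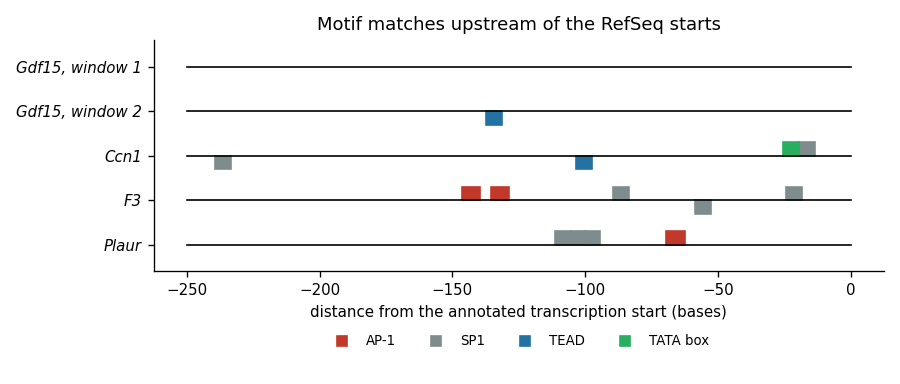
Positions of motif matches in the 250 bases before the annotated transcription start of Gdf15 (2 starts), Ccn1, F3 and Plaur (GRCm38.p6), by distance from the start in bases. Boxes above a line match the gene's own strand and boxes below it the opposite strand. F3 holds 2 AP-1 matches and Plaur 1, Ccn1 and the second Gdf15 window hold a TEAD match each, and the first Gdf15 window is empty.

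Gdf15 was low before irradiation in all mouse lines and was the gene of the 5 that differed most between P72 and R72 at 4 h. Its probe (chr8:69084712-69084771, build mm7 per the file headers) was well above background on all 32 arrays. In P72, replicates 1 to 4 read -3.16, -3.89, -3.59 and -3.67 at 0 h, 1.28, 0.43, 0.72 and 0.91 at 2 h, and 1.77, 1.80, 1.74 and 2.45 at 4 h. In R72 they read -3.66, -2.97, -3.93 and -3.71 at 0 h, 0.21, 0.67, 0.28 and -0.42 at 2 h, and 1.26, 0.88, 0.078 and 0.54 at 4 h. Every irradiated array of both lines lay above every untreated array, and the 2 h and 4 h arrays of P72 did not overlap, whereas those of R72 did. The difference from 0 h was 4.41 ± 0.27 at 2 h and 5.52 ± 0.27 at 4 h in P72 (45.9-fold at 4 h), and 3.75 ± 0.27 and 4.26 ± 0.27 in R72 (19.1-fold at 4 h). Ordered by their means, the groups ran from P72 at 4 h (1.94 ± 0.34, SD, n = 4) and P72 at 2 h (0.83 ± 0.36, SD, n = 4) through R72 at 4 h (0.69 ± 0.50, SD, n = 4) and R72 at 2 h (0.19 ± 0.45, SD, n = 4). Each of the last 3 overlapped its neighbour in that order, and the untreated groups of all 4 lines overlapped one another in a chain from -3.25 to -3.60.

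Ccn1 was near or below the background of the arrays in untreated thymocytes and was high at both later times in P72 and R72. Its probe (chr3:145544387-145544446, mm7) was well above background on 25 of the 32 arrays and on none of the untreated P72 arrays. In P72 the replicates read -6.60, -5.66, -5.55 and -5.82 at 0 h, -1.41, -1.44, -1.35 and -1.60 at 2 h, and -0.56, -0.16, -0.53 and 0.40 at 4 h. In R72 they read -5.06, -5.11, -5.78 and -4.78 at 0 h, of which replicates 2 and 4 were well above background, then -2.15, -1.78, -2.17 and -1.46 at 2 h, and -0.12, -0.10, -0.43 and -0.046 at 4 h. The 3 times did not overlap in either line. In P72 the level was 22.0-fold higher at 2 h and 51.8-fold higher at 4 h than at 0 h (differences of 4.46 ± 0.24 and 5.69 ± 0.24). In R72 the differences were 3.29 ± 0.24 and 5.01 ± 0.24, which is 9.80-fold and 32.2-fold. The 4 h groups of R72 (-0.17 ± 0.17, SD, n = 4) and P72 (-0.21 ± 0.45, SD, n = 4) overlapped, as did the 2 h groups of P72 (-1.45 ± 0.10, SD, n = 4) and R72 (-1.89 ± 0.33, SD, n = 4).

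F3, the gene for tissue factor, was not well above background on any untreated P72, R72 or p53+/+ array and was well above background on every P72 and R72 array at 4 h. Its probe (chr3:121503205-121503264, mm7) read -7.66, -6.66, -7.72 and -6.73 in P72 at 0 h, -4.72, -6.12, -4.94 and -6.59 at 2 h, and -1.67, -1.91, -1.94 and -1.16 at 4 h. In R72 it read -6.92, -7.54, -6.47 and -6.90 at 0 h, -6.11, -5.90, -5.41 and -4.64 at 2 h, and -1.61, -1.30, -1.87 and -1.44 at 4 h. At 2 h the probe was well above background on 2 of 4 arrays in each line, replicates 1 and 3 of P72 and replicates 3 and 4 of R72. At 4 h all 8 arrays stood apart from all earlier ones, and F3 was 46.1-fold higher than at 0 h in P72 and 42.4-fold higher in R72. The 0 h readings behind these folds were not well above background. The greater part of that difference fell between 2 h and 4 h, at 3.92 ± 0.39 in P72 and 3.96 ± 0.39 in R72, compared with 1.60 ± 0.39 and 1.44 ± 0.39 between 0 h and 2 h. The early difference in P72 was 2.86 within replicates 1 and 3, the arrays without Xist signal, and 0.34 within replicates 2 and 4. In R72 the same split ran the other way, at 0.94 within replicates 1 and 3 and 1.95 within replicates 2 and 4, and the part of the sex-linked signal in either was not tested. A second F3 probe, whose coordinates overlap the first by 20 bases, gave 5.45 in P72 and 5.52 in R72 for 4 h minus 0 h, but at 2 h it was well above background on 0 of 4 P72 arrays and on 3 of 4 R72 arrays.

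Plaur, the urokinase receptor gene, was measurable on all 32 arrays, including the untreated ones, and stepped up at each time. Its brighter probe (chr7:21263487-21263546, mm7) read -2.45, -1.95, -2.41 and -2.34 in P72 at 0 h, -0.23, 0.0098, -0.75 and -0.85 at 2 h, and 0.79, 0.99, 0.71 and 0.89 at 4 h. In R72 it read -1.75, -1.86, -1.61 and -1.53 at 0 h, -0.50, -0.57, -0.26 and -0.49 at 2 h, and 1.02, 0.60, 0.67 and 0.97 at 4 h. The times were separate in both lines, and the untreated R72 arrays all lay above the untreated P72 arrays. The difference from 0 h was 1.83 ± 0.16 at 2 h and 3.13 ± 0.16 at 4 h in P72 (8.76-fold at 4 h), and 1.23 ± 0.16 and 2.50 ± 0.16 in R72 (5.65-fold at 4 h). A second Plaur probe, also measurable on all 32 arrays, gave smaller differences of 2.72 in P72 and 2.41 in R72 at 4 h.

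Plau, the gene for urokinase itself, stayed at the edge of detection. Its brighter probe (chr14:18499577-18499636, mm7) was well above background on 10 of the 32 arrays and the other Plau probe on 0 of 32. In P72 the replicates read -7.83, -7.75, -6.28 and -6.60 at 0 h, -5.53, -6.82, -6.11 and -4.96 at 2 h, and -4.47, -4.49, -4.37 and -4.25 at 4 h. In R72 they read -7.20, -7.17, -7.87 and -6.20 at 0 h, -6.26, -5.96, -6.40 and -6.10 at 2 h, and -4.47, -3.76, -4.68 and -4.61 at 4 h. Untreated arrays were never well above background, against 3 of 4 P72 arrays and 4 of 4 R72 arrays at 4 h. The 4 h arrays lay above the untreated ones in both lines, by 6.47-fold in P72 and 6.61-fold in R72. At 2 h, where 1 array per line was well above background, the groups overlapped with 0 h.

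**Figure D2:**
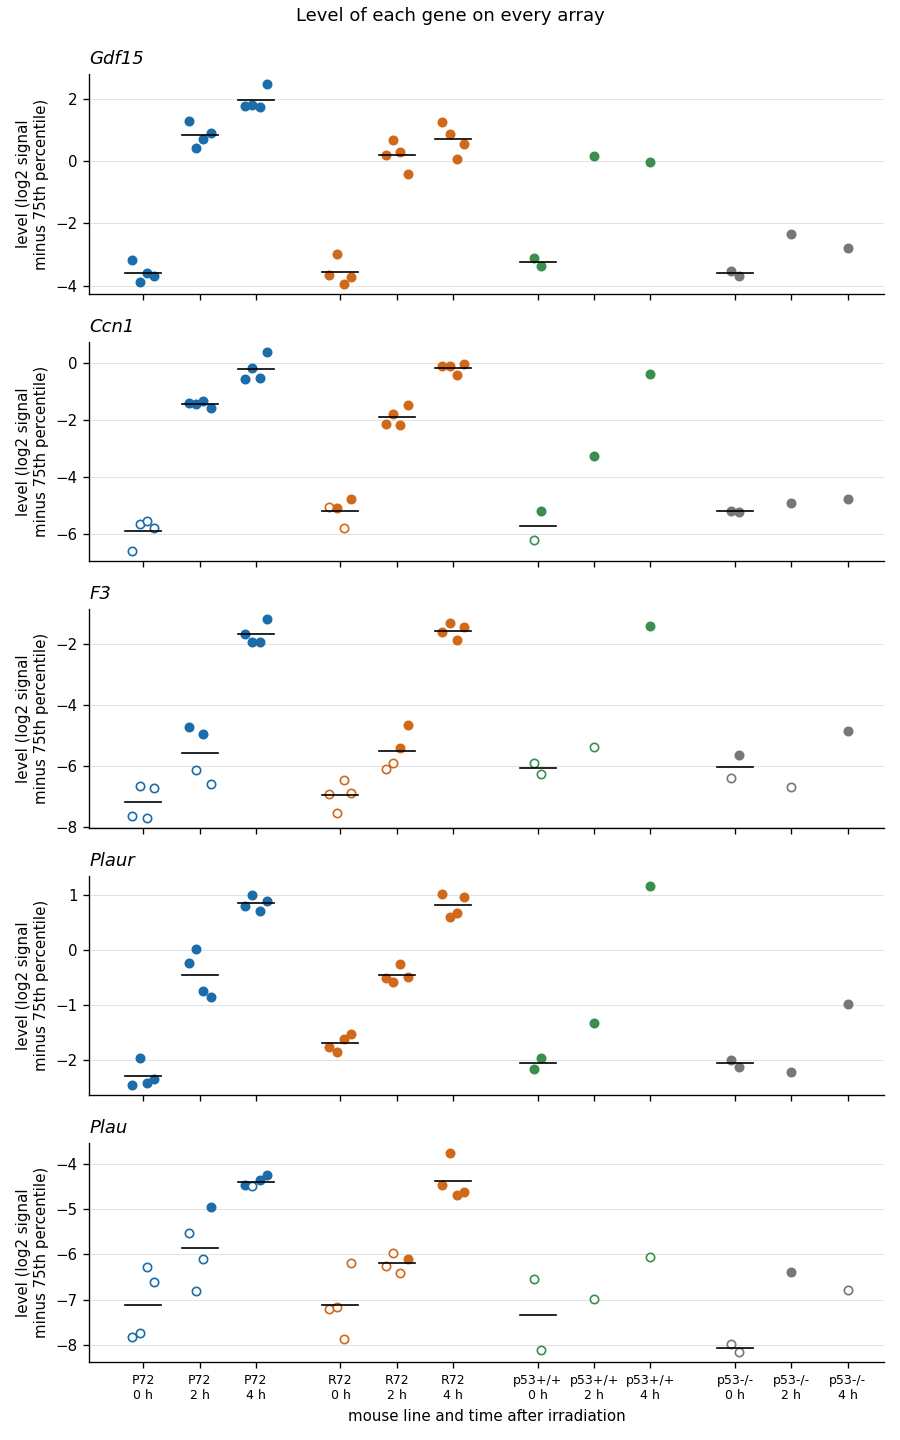
Level of Gdf15, Ccn1, F3, Plaur and Plau on each of the 32 arrays (log2 of processed signal, less the 75th percentile), by mouse line and time after 5 Gy. Filled points were well above background and open points were not, and lines mark the means of groups with more than 1 array. F3 is well above background on 2 of 4 arrays of P72 and of R72 at 2 h and on all of them at 4 h, and at 4 h the Gdf15 points of P72 (1.74 to 2.45) all lie above those of R72 (0.078 to 1.26).

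Set side by side, the 5 genes differed in timing. Gdf15 and Ccn1 had most of their 4 h difference at 2 h already, F3 had little of it, and Plaur lay between them. The change from 2 h to 4 h was 1.11 ± 0.27 for Gdf15, 1.24 ± 0.24 for Ccn1, 3.92 ± 0.39 for F3, 1.30 ± 0.16 for Plaur and 1.46 ± 0.39 for Plau in P72. In R72 it was 0.50 ± 0.27, 1.72 ± 0.24, 3.96 ± 0.39, 1.27 ± 0.16 and 1.80 ± 0.39 in the same order. Past the limma threshold (adjusted p under 0.05 over 20543 genes) were 5 of 5 genes in P72 at 2 h, where 9.92% of all genes were called higher and 4.61% lower. At 4 h in P72 it was also 5 of 5, with 36.7% of all genes higher and 19.5% lower. In R72, 4 of 5 genes, all but Plau, passed at 2 h (6.42% of all genes higher, 6.35% lower) and 5 of 5 at 4 h (29.7% higher, 14.7% lower). Arrays at 4 h lay above those at 0 h without overlap for all 5 genes in both lines, as for 33.4% of all genes in P72 and 28.2% in R72. The genes were selected on these arrays, so nothing is read from these counts. With quantile normalization or the authors' value table, 3 of 5 passed at 2 h in each line. With normexp background correction of all spots, 3 passed in P72 and 2 in R72. With normexp background correction (offset 50, leaving out 14 spots far below their background), the 4 h differences of F3 and Plau shrank to 1.81 and 0.81 in P72 and to 1.93 and 0.55 in R72. In the authors' value table they were 2.05 and 0.36 in P72 and 2.10 and 0.46 in R72. The size of the change of the genes near background thus depended on the processing, and which step of it matters was not tested.

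**Figure D3:**
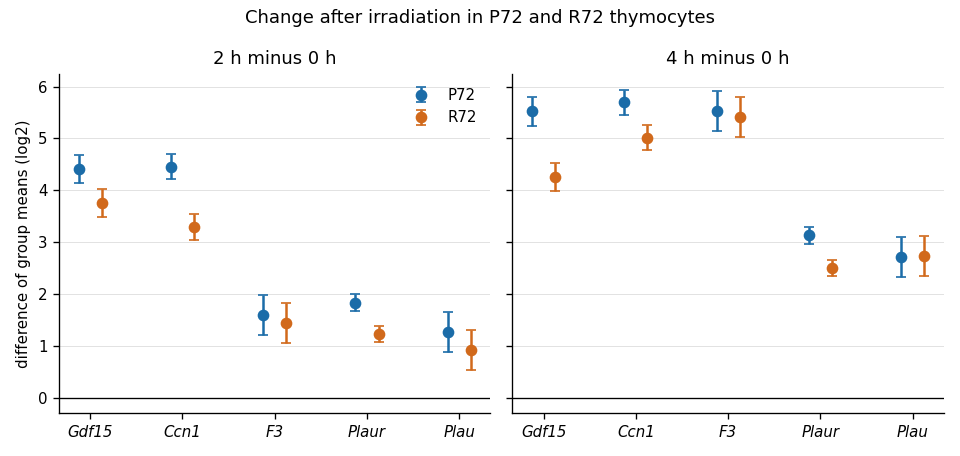
Difference of group means from 0 h (log2, y axis) at 2 h and 4 h for the 5 genes in P72 and R72, with limma standard errors (4 arrays per group). At 2 h Gdf15 and Ccn1 lie highest in both lines and Plau lowest, and at 4 h F3 has reached 5.53 in P72 and 5.41 in R72.

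The lines P72 and R72 were compared to ask whether the proline and arginine variants of p53 differ in the radiation response. Gdf15 was 1.25 ± 0.27 higher in P72 than in R72 at 4 h, which is 2.38-fold, with no overlap between the 4 arrays of each line. This was the only one of the 5 genes past the limma threshold there (0.691% of all genes were called higher in P72 and 0.555% lower), and the only one whose arrays did not overlap (5.19% of all genes). As the 5 genes were selected on these arrays, nothing is read from that call. At 2 h the Gdf15 difference was 0.65 ± 0.27 with overlapping arrays, and at 0 h it was -0.013 ± 0.27. Within the first scan day (replicates 1 and 2) the 4 h difference was 0.71. For replicates 3 and 4, from the later scan days, it was 1.79. There the P72 and R72 arrays at 4 h were scanned on different days, so line and scan day cannot be told apart. The 4 h difference was 1.08 within replicates 1 and 3 and 1.42 within replicates 2 and 4, the arrays without and with Xist signal. At 4 h no slide held arrays of both lines, so line and slide cannot be told apart in this comparison. With slide as a block the difference was 1.43 and with scan day as a block 0.99, and in neither fit was it past the threshold. Nor was it past the threshold with normexp background correction of all spots. Without P72 replicate 4, the highest of all arrays, it was still 1.08.

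For the other 4 genes the arrays of P72 and R72 overlapped at 4 h. P72 minus R72 at 4 h was -0.039 ± 0.24 for Ccn1, -0.12 ± 0.39 for F3, 0.032 ± 0.16 for Plaur and -0.011 ± 0.39 for Plau, each smaller than its standard error. Before irradiation Plaur was lower in P72 by 0.60 ± 0.16 without overlap, and its second probe was lower by 0.43 without overlap. Ccn1 was -0.72 ± 0.24 in the same comparison, where no P72 array and 2 R72 arrays were well above background. As a result the difference between the responses, P72 minus R72 in 4 h minus 0 h, was 1.26 ± 0.39 for Gdf15, 0.68 ± 0.34 for Ccn1, 0.12 ± 0.55 for F3, 0.63 ± 0.23 for Plaur and -0.0057 ± 0.55 for Plau. None of the 20543 genes passed the limma threshold in that comparison (0% higher and 0% lower), while 916 were higher and 248 lower at an unadjusted p under 0.05.

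**Figure D4:**
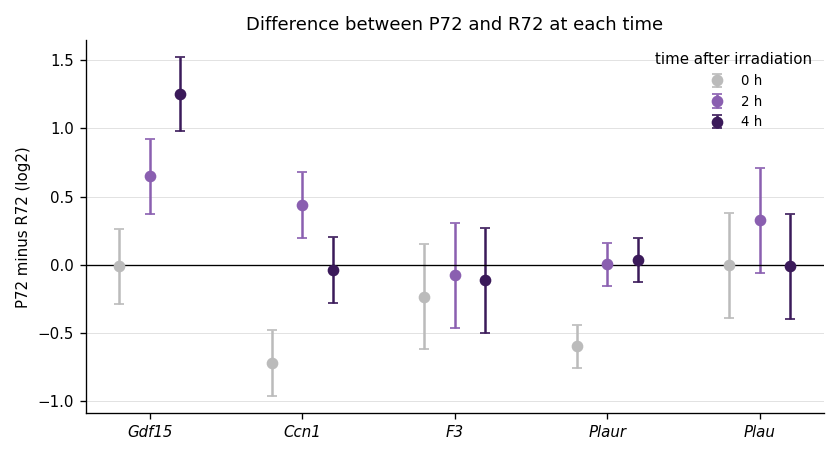
P72 minus R72 (log2) for the 5 genes at 0 h, 2 h and 4 h, with limma standard errors (4 arrays per group). Gdf15 moves from about 0 to 1.25 at 4 h, while Plaur and Ccn1 start below 0 and end near it.

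In the p53+/+ and p53-/- mice the genes were read with and without p53. Each irradiated group is 1 array, so single values are given. The irradiated p53+/+ arrays shared a slide, and the irradiated p53-/- arrays shared a different one. These arrays also differed in sex-linked signal, so after irradiation the genotype cannot be told apart from slide or sex-linked signal. Gdf15 was at -3.12 and -3.38 on the untreated p53+/+ arrays, 0.17 at 2 h and -0.041 at 4 h. On the p53-/- arrays it was at -3.52 and -3.68 untreated, -2.32 at 2 h and -2.79 at 4 h, above the untreated arrays but far below p53+/+. Gdf15 was thus 2.50 higher in p53+/+ than in p53-/- at 2 h and 2.75 higher at 4 h. Ccn1 in p53+/+ was at -6.23 and -5.21 untreated, -3.27 at 2 h and -0.38 at 4 h. Its p53-/- values were -5.21, -5.22, -4.93 and -4.76 in the same order, so the irradiated arrays lay 0.29 and 0.45 above the untreated mean. At 2 h the p53+/+ array was also below every P72 and R72 array of that time (-2.17 to -1.35).

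F3 without p53 did not exceed background at 2 h and was low at 4 h. In p53+/+ it read -5.91 and -6.25 untreated and -5.36 at 2 h, none well above background, and -1.39 at 4 h, 25.9-fold above the untreated arrays. In p53-/- it read -6.40 and -5.65 untreated, -6.71 at 2 h and -4.87 at 4 h, which left it 3.48 below p53+/+ at 4 h. The readings of -5.65 and -4.87 were well above background. The 4 h array of p53-/- stood 1.16 above the untreated mean, and 1.45 above it with the second F3 probe. Plaur in p53+/+ read -2.15 and -1.96 untreated, -1.32 at 2 h and 1.16 at 4 h, the highest Plaur level of any array. In p53-/- it read -1.99 and -2.11 untreated, -2.22 at 2 h and -0.97 at 4 h, so the 4 h array stood 1.07 above the untreated mean. Both Plaur probes showed that pattern, with 0.78 for the second one. Plau was not well above background on any p53+/+ array and on 1 p53-/- array (-6.38 at 2 h), so no comparison of it is possible there.

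Averaged over 2 h and 4 h, irradiated minus untreated was 3.32 ± 0.37 for Gdf15, 3.90 ± 0.36 for Ccn1, 2.71 ± 0.53 for F3 and 1.97 ± 0.22 for Plaur in p53+/+. The same average in p53-/- was 1.04 ± 0.37, 0.37 ± 0.36, 0.24 ± 0.53 and 0.45 ± 0.22. In limma, 4 of the 5 genes passed the threshold in p53+/+, all but Plau (13.6% of all genes higher, 9.84% lower), and 0 of 5 in p53-/- (0.755% higher, 0.302% lower). The difference between these responses passed for Gdf15, Ccn1 and Plaur (3.18% of all genes higher, 2.15% lower). With normexp background correction none of the 5 genes passed for that difference. With the authors' value table, or with normexp and the extreme spots left out, F3 passed as well. Because the 5 genes were selected on these arrays, nothing is read from these calls. The average hides the timing, since without the 4 h arrays the p53+/+ value was 2.45 for Ccn1, 0.72 for F3 and 0.73 for Plaur, and without the 2 h arrays 5.34, 4.70 and 3.21. All p53+/+ and p53-/- arrays were scanned on a day of their own, so their levels are compared with P72 and R72 only across days.

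Over the 12 group means, for which all genes were read from the same arrays, the members followed one another with Pearson correlations between 0.71 (Gdf15 and F3) and 0.95 (Ccn1 and Plaur). Among 14498 genes compared, the 3 most like Gdf15 were Ndnf (0.984), Cemip2 (0.978) and Mcee (0.971). For Ccn1 they were Atf3, an AP-1 related stress factor (0.992), Glipr2 (0.985) and Aim1 (0.980). F3 was most like Fam102a (0.987), Nhsl1 (0.983) and Csmd3 (0.983), and Plaur most like Akr1c20 (0.989), Cd300lf (0.985) and Plet1 (0.982). Plau followed the cytokine gene Il1a most closely (0.960), then Prss32 (0.957) and Inca1 (0.956). All are correlations across group means, and which groups drive them was not tested.

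The genes with which the 5 products work were taken from lists written with results of these arrays known. Among the coagulation partners of tissue factor, 18 of 23 tested genes rose in P72 at 4 h and 0 fell, and 14 rose and 0 fell in R72 (limma; 36.7% and 29.7% of all genes rose). The median difference was 1.54 in P72 and 0.95 in R72, against 0.12 and 0.11 over all genes. F7, the ligand of tissue factor, went from a mean level of -5.99 at 0 h to -3.67 at 4 h in P72. That is 4.99-fold, against 0 h arrays of which none was well above background. In R72 it went from -5.40 to -3.71, a log2 rise of 1.69 ± 0.26 (adjusted p = 4.25e-05). F10, the factor that the complex of tissue factor and factor VIIa activates, rose by 2.78 ± 0.30 in P72 (adjusted p = 3.71e-07) and 1.5 ± 0.30 in R72 (adjusted p = 4.4e-04). The anticoagulant side rose too, with Pros1 (protein S) up by 1.76 ± 0.17 and 1.25 ± 0.17 and Procr (the protein C receptor) by 1.73 ± 0.22 and 1.15 ± 0.22 in P72 and R72. With quantile normalization 9 of 23 partners rose and 0 fell in P72 and 7 rose and 2 fell in R72, and with the array median as the scale 11 rose and 2 fell in P72 and 7 rose and 4 fell in R72. Under normexp background correction 7 of 23 rose in P72 and 0 of 23 in R72, and with the extreme spots left out 20 and 10 did.

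Of 12 tested plasminogen activation partners, 7 rose and 1 fell at 4 h in both P72 and R72 (36.7% of all genes rose and 19.5% fell in P72, 29.7% and 14.7% in R72), with medians of 0.79 and 0.62. Under normexp 5 rose and 1 fell in P72 and 1 rose and 1 fell in R72, and with the array median 5 rose and 3 fell in P72 and 4 rose and 1 fell in R72. Plat, the tissue-type plasminogen activator, rose by 1.65 ± 0.20 in P72 and 1.43 ± 0.20 in R72. Lrp1, an endocytic receptor of many ligands, rose by 1.85 ± 0.21 and 1.44 ± 0.21. Anxa2, a plasminogen-binding annexin, fell by 0.77 on the log2 scale in P72 and by 0.65 in R72. At an adjusted p under 0.05 in limma, Lrp1 was the only partner of this list whose response differed between p53+/+ and p53-/- (2.05 ± 0.40, adjusted p = 0.00315).

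In the list of CCN proteins, YAP/TEAD components and CCN receptors, 9 of 14 tested genes rose and 3 fell in P72 at 4 h, and 8 rose and 3 fell in R72, where 36.7% of all genes rose and 19.5% fell in P72 and 29.7% and 14.7% in R72. Under normexp 0 of 14 rose or fell in R72, and with the array median 5 rose and 3 fell in P72 and 5 rose and 5 fell in R72. Ccn2 (CTGF), the closest relative of Ccn1, rose by 2.42 ± 0.23 in P72 and 1.88 ± 0.23 in R72 (adjusted p = 9.81e-08 and 4.55e-06). Ccn4, not well above background on any 0 h array of either line, was 6.05-fold and 4.73-fold higher. On the log2 scale the YAP target Amotl2 rose by 1.29 ± 0.18 and 1.03 ± 0.18, and the coactivator Wwtr1 (TAZ) by 2.54 ± 0.43 and 1.59 ± 0.43. For the TGF-beta superfamily list, which holds the relatives of Gdf15, 12 of 25 tested genes rose and 4 fell in P72, and 9 rose and 3 fell in R72, against the same shares of all genes, to which the R72 counts are close. The direction of this list depended on the scale, since with the array median 5 rose and 9 fell in P72 and 1 rose and 9 fell in R72. Under normexp 4 rose and 3 fell in P72 and 0 rose or fell in R72. Inhba (activin A) rose by 1.63 ± 0.22 and 1.02 ± 0.22 and the receptor gene Acvr1 by 1.07 ± 0.17 and 0.66 ± 0.17. Bmpr2 rose by 0.63 ± 0.08 and 0.47 ± 0.08, but by 0.02 with the array median as the scale in P72, where the median of all genes fell by 0.49 on the log2 scale. Tgfb2, not well above background on any 0 h array of either line, was 4.08-fold higher in P72 and 1.96-fold higher in R72, where quantile normalization turned its sign (-0.06).

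Other secreted products of p53 target genes were also mostly higher. All 8 tested genes of that list rose in P72 at 4 h and 7 of 8 in R72 (36.7% and 29.7% of all genes rose). The medians were 1.91 and 1.15, against 0.12 and 0.11 over all genes. Under normexp 6 rose in P72 and 2 in R72, and with quantile normalization or the array median 6 and 5 did. Thbs1 (thrombospondin-1), not well above background on any 0 h array of either line, was 38.8-fold and 31.5-fold higher. On the log2 scale the growth factor Hbegf rose by 4.77 ± 0.19 in P72 (limma, adjusted p = 2.03e-13) and 4.34 ± 0.19 in R72 (adjusted p = 1.06e-12). Csf1, the macrophage growth factor, rose by 3.35 ± 0.26 and 1.99 ± 0.26 and the chemokine Cx3cl1 by 2.01 ± 0.24 and 1.04 ± 0.24. In p53-/-, 0 of 23 coagulation partners, 0 of 12 plasminogen partners and 0 of 25 TGF-beta genes rose in limma, with 1, 1 and 3 higher at an unadjusted p under 0.05, and 1 of the 8 other secreted p53 targets rose (0.755% of all genes rose). Hbegf responded more in p53+/+ than in p53-/- by 1.56 ± 0.37 (adjusted p = 0.0156), whereas the difference was 1.09 ± 1.09 for Thbs1 and 1.67 ± 0.54 for F7, neither past the threshold.

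**Figure D5:**
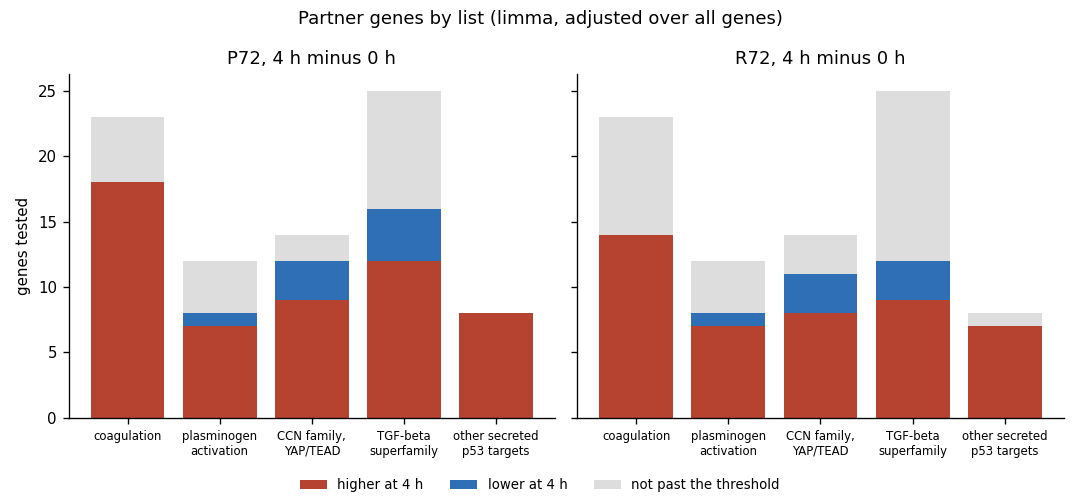
Number of tested partner genes that were higher, lower or not past the threshold at 4 h against 0 h in P72 and R72 (limma, adjusted p under 0.05 over all genes), for the 5 partner lists. Coagulation genes and other secreted p53 targets are mostly higher in both lines (18 of 23 and 8 of 8 in P72, 14 of 23 and 7 of 8 in R72). Over all genes 36.7% were higher in P72 and 29.7% in R72.

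Several members are also products of myeloid, stromal and epithelial cells, and markers of such cells were measured in the same samples. In bulk RNA, fewer thymocytes and less RNA per thymocyte cannot be told apart, nor can more cells of another type and more RNA in them. At 4 h in P72, 10 of 15 tested macrophage markers, 13 of 13 neutrophil markers, 12 of 15 dendritic cell markers, 11 of 14 thymic epithelial markers and 5 of 8 platelet markers rose, and none of these lists had a marker that fell. In R72 these counts were 5 of 15, 3 of 13, 11 of 15, 5 of 14 and 4 of 8, again with none that fell. Over all genes 36.7% rose in P72 and 29.7% in R72, so the R72 counts of macrophage, neutrophil and thymic epithelial markers were near or below the share of all genes. The counts depended on the scale. With the array median 5, 7, 9, 9 and 4 rose in P72 in the same order, and 1, 0, 5, 3 and 3 in R72. There 1 dendritic cell marker fell in each line, and 1 macrophage and 1 thymic epithelial marker fell in R72. With quantile normalization 1 platelet marker rose and 1 fell in P72. Among the markers, the monocyte receptor gene Cd14 rose by 3.01 and 2.71 in P72 and R72, the costimulatory ligand gene Cd80 by 3.51 and 3.00, and the keratin gene Krt8 by 2.07 and 1.25. Of 16 thymocyte markers, 2 rose and 7 fell in P72 and 2 rose and 4 fell in R72. With the array median 0 rose in either line, and 13 fell in P72 and 12 in R72. Of 7 B cell markers, 2 rose and 1 fell in P72 and 1 rose and 1 fell in R72, and of 11 markers of endothelium and fibroblasts, 3 rose and 1 fell in both lines. Vsig4, Gp9, Tie1 and Emcn, markers on these lists, were on the array but too rarely above background to be tested.

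The summed level of the macrophage markers, in multiples of the 75th percentile, ran from 31.1 to 58.3 in P72 at 0 h and from 83.7 to 112.7 at 4 h, and from 49.9 to 74.2 and 71.2 to 111.3 in R72. That of the neutrophil markers ran from 35.8 to 63.8 and 72.9 to 151.6 in P72, and from 69.5 to 89.2 and 69.4 to 142.7 in R72. For thymic epithelium it ran from 14.0 to 33.3 and 59.3 to 87.0 in P72, and from 37.7 to 48.5 and 62.3 to 92.0 in R72. The dendritic cell sum ran from 26.3 to 46.1 and 68.8 to 81.0 in P72, and from 29.3 to 40.4 and 41.3 to 75.5 in R72. Platelet markers were low, with sums of 0.29 to 0.40 and 0.55 to 0.80 in P72 and 0.25 to 0.49 and 0.41 to 0.64 in R72, and 2 of the 8 were on no P72 array well above background at 4 h. The thymocyte sum was 1437 to 1739 at 0 h and 1499 to 1599 at 4 h in P72.

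The part of these other cells in the members' values was not tested. In p53+/+ the macrophage sum was 43.5 and 43.7 untreated, 37.5 at 2 h and 76.4 at 4 h, and the neutrophil sum was 30.0 and 30.7 untreated, 43.4 at 2 h and 92.4 at 4 h. In p53-/- they were 57.7 and 58.1 untreated, 44.2 at 2 h and 54.9 at 4 h for macrophages, and 40.0 untreated on both arrays, 42.4 at 2 h and 49.8 at 4 h for neutrophils. At 2 h, 1 of 15 macrophage, 1 of 13 neutrophil, 8 of 15 dendritic cell and 7 of 14 thymic epithelial markers rose in P72 in limma (9.92% of all genes rose). In R72 these counts were 1, 0, 1 and 0 (6.42% of all genes rose), with 1, 0, 5 and 0 higher at an unadjusted p under 0.05.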

How the data were processed

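RNA of 32 thymocyte samples was read on single-colour Agilent mouse arrays, 1 array per sample. The deposited intensity values are processed signals from Agilent Feature Extraction (9.5.3 per the submitters' processing notes, 9.5.3.1 per the file headers), background-subtracted by the scanner software. The authors' deposited value table holds log2 values, whose normalization is not given in the sources used here, and it was used as an alternative. Here, 1639 control spots and outlier spots (0.223% of values) were left out, spots of one probe were averaged, and log2 signal minus the array's 75th percentile was taken. A probe was kept if 4 or more of the 32 arrays showed it well above background (29369 of 41174 probes), with the brightest probe standing for a gene, which gave 20543 genes tested. The comparisons within and between P72 and R72 were fitted in limma 3.58.1 (R 4.3.3) on the arrays of those lines only. The p53+/+ and p53-/- comparisons came from a separate limma fit of all 12 groups on the 32 arrays. Each fit used Benjamini-Hochberg adjustment over all genes and a threshold of 0.05, and the fitting was tested on simulated data. Arrays of one group correlated between 0.974 and 0.995 across genes. Same-numbered P72 and R72 arrays deviated from their group means with a median correlation of 0.12 (-0.27 to 0.53 over 60 pairs). Over 180 pairs of different numbers the median was -0.032. Sex-linked signal also followed the numbers. The main fit did not use the numbers as pairs, and a block for them is given among the alternatives. P-values measure the spread between these samples only, and the number of arrays limits precision.

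The 5 genes, the partner and marker lists and the tests were chosen with earlier results of these data known. The genes named are the 5 members, Trp53 and Cdkn1a as checks, up to 4 genes of each partner list and up to 2 of each marker list with the smallest p for 4 h against 0 h in P72, up to 2 per partner list by the difference between the P72 and R72 responses where past 0.05 (there were 0), and for each member the 3 tested genes of highest correlation over the 12 group means. Some genes that this rule names are not reported here. Sex-linked genes were added after their values were seen. A fold against a group never well above background takes each array's reading, or the lowest signal well above background on that array where this is higher. Such a fold depends on the background correction and is no lower bound for other processing. Motifs were searched with Python 3.11.15. Alternatives were normexp background correction, quantile and median scaling, the authors' table, other filters, the mean of probes, blocks for slide, replicate and scan day, and leaving out arrays.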

Additional observations from a re-analysis of the deposited data

Results flagged for a closer look

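Among the 30 groups of 4 arrays tested (5 genes in 6 groups), 1 had an array far from the other 3 by Dixon's criterion. This was Gdf15 in P72 at 4 h, where replicate 4 read 2.45 and the others between 1.74 and 1.80. Chance flags about 1 in 20 such groups.

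The response to radiation differed between p53+/+ and p53-/- (limma, 2 untreated and 2 irradiated arrays each) for 4 other named genes. It was higher in p53+/+ by 2.05 ± 0.40 for Lrp1 (adjusted p = 0.00315) and by 1.56 ± 0.37 for Hbegf (adjusted p = 0.0156). The same difference was 1.90 ± 0.55 for the monocyte marker Cd14 (adjusted p = 0.0448) and 3.74 ± 0.68 for Cd80 (adjusted p = 0.00173). The irradiated p53+/+ arrays also differed from the untreated ones in sex-linked transcripts, and from the irradiated p53-/- arrays in slide. The part of either in these values was not tested.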

How the results depend on the processing

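The 4 h differences of the 5 genes kept their sign under every alternative, but their size depended on the processing. Except where stated, the cause was not tested. In the order Gdf15, Ccn1, F3, Plaur and Plau, normexp gave 4.16, 2.76, 1.93, 2.42 and 1.01 in P72 and 2.50, 2.04, 1.27, 1.80 and 0.10 in R72. Normexp without extreme spots, chosen after seeing the data, gave 4.22, 2.74, 1.81, 2.45 and 0.81, and 3.04, 2.76, 1.93, 2.10 and 0.55. The authors' value table gave 4.56, 3.19, 2.05, 2.63 and 0.36, and 3.32, 3.09, 2.10, 2.21 and 0.46. The array median gave 4.91, 5.08, 4.92, 2.52 and 2.11 in P72 and 3.78, 4.54, 4.93 and 2.03 for the first 4 in R72. Quantile normalization gave 5.01 for F3 and 1.69 for Plau in P72, and 4.92 and 2.14 in R72, and the mean of probes gave 2.93 for Plaur in P72. F3 at 2 h in R72 turned to -0.72 with normexp.

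The P72 minus R72 difference of Gdf15 at 4 h was no longer past the threshold with normexp or with a block for slide or scan day. Slide as a block moved that of Ccn1 to 0.60, of F3 to -0.45 and of Plau to 0.56. The following splits were added after seeing the data. On the first scan day Plau in P72 was 3.31, F3 in R72 5.78, and P72 minus R72 0.71 for Gdf15 and -0.36 for Plau, and on the later days 2.13, 5.03, 1.79 and 0.34. The later P72 minus R72 values compare lines scanned on different days, and the later F3 value in R72 also mixes days. Replicates 1 and 3 gave 5.13 for Gdf15 in P72 and 4.96 for F3 in R72, and replicates 2 and 4 gave 5.91 and 5.85.

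Counts of genes past the threshold were 2985 and 11544 in P72 at 2 h and 4 h, 2624 and 9118 in R72, 256 for P72 minus R72 at 4 h, 0 for the difference in response, 4810 in p53+/+, 217 in p53-/- and 1094 for their difference. Normexp gave 489, 5862, 355, 1239, 18, 960, 21 and 214 for all but the count of 0, and without extreme spots 1509 in P72 at 2 h, 1361 in R72 at 2 h and 123 for P72 minus R72. Quantile normalization gave 469 for P72 minus R72 and 131 in p53-/-, the array median 7913 in p53+/+, 66 in p53-/- and 2047 for their difference, and the authors' values gave 1847 in P72 at 2 h, 500 for P72 minus R72 and 346 in p53-/-. Without a filter the counts were 169, 117 and 637 for P72 minus R72, p53-/- and the p53 difference. With probes above background on all arrays, which leaves fewer genes tested, they were 7462 and 5775 at 4 h in P72 and R72. Slide as a block gave 18 for P72 minus R72 and 476 for the p53 difference, and scan day as a block 144. With a replicate block P72 minus R72 had 471, and 21 of 24 arrays correlated best with their own number, a hint from the data and not the design. Leaving out 1 array at a time gave 104 to 404 for P72 minus R72 (104 without R72 4 h replicate 4, 404 without R72 2 h replicate 4), 1591 to 2996 in R72 at 2 h, 0 to 1 for the difference in response, 1194 to 5955 in p53+/+, 23 to 210 in p53-/- and 365 to 771 for their difference.

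The share of called genes that were higher fell with the array median from 65.2% to 27.9% in P72 at 4 h, from 66.9% to 26.8% in R72 at 4 h, from 68.2% to 31.4% in P72 at 2 h, from 50.3% to 26.6% in R72 at 2 h, from 55.5% to 19.4% for P72 minus R72, from 58.0% to 17.9% in p53+/+ and from 59.7% to 18.9% for the p53 difference. Signals near background (F3 and Plau before irradiation) and groups of 1 array limit these values.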
